A study of Glycine max with 12 samples.

Results

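An array of 5760 soybean cDNA spots was hybridized with labelled cDNA of leaves. On it, 81 spots stood higher after polyethylene glycol (PEG) and near 0 after both inducers of endoplasmic reticulum (ER) stress. They were chosen from the authors' log2 ratios of treated over control as spots with a mean PEG ratio of at least 1.5-fold (0.58 on the log2 scale, the lower limit), all PEG values above 0, and means between −0.3 and 0.3 under tunicamycin (TUN) and under L-azetidine-2-carboxylic acid (AZC). Each treatment needed at least 3 of its 4 values, which 5332 spots had. The ratios of all 3 treatments thus chose these clones, and they are given below as a description. Where calls of a fit are counted on them, the rule fixed the outcome in large part and nothing rests on those counts.

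The arrays were hybridized with labelled cDNA of first trifoliate leaves from 3-week-old plants of cultivar Dare, treated and control RNA together on each slide. Excised shoots stood in 10% PEG for 16 h, in 10 μg/ml TUN for 24 h or in 50 mM AZC for 16 h. The control was water for PEG and AZC and DMSO for TUN, and the labels do not say whether PEG and AZC shared the same water plants. Each treatment had 2 biological replicates, each hybridized in both dye orientations, which gave 12 hybridizations. Excised shoots lack roots, and the spotted cDNAs came from libraries of developing seeds, so leaf transcripts outside that collection were not measured. A spot counted as above background if its foreground exceeded the local background by 2 SD and the scanner software had not marked it as bad, and in every channel but 1, described below, this held for 81.8 to 99.6% of spots. A whole leaf gives its average, in which fewer cells of a type and less RNA per cell cannot be told apart.

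PEG draws water out of plant tissue and is used to imitate drought. Plant cells that lose water commonly accumulate abscisic acid, protective proteins of the late embryogenesis abundant (LEA) type, compatible solutes and detoxifying enzymes, many of which are also made in the drying seed. TUN blocks N-glycosylation and AZC, a proline analog, causes proteins to misfold, so both load the ER with unfolded protein and induce its chaperones.

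Only 11 of the 81 spots, 13.6%, carried a gene symbol in the platform's table, against 4.39% of the 5332 spots. They stood for 9 symbols. Seed maturation proteins, whose transcripts build up late in seed development, took 5 of the spots, with PM34 on 2 of them and PM12, PM30 and PM41 on 1 each. ALDH7B1, an aldehyde dehydrogenase of the antiquitin type, took 2 spots. The others were GSTa, a glutathione S-transferase, the bZIP transcription factor BZIP77, LOC548084, an epoxide hydrolase in the study's clone list, and LOC547865, a phospholipase C in that list. Their mean PEG ratios ran from 0.90 to 5.29, with a median of 1.09. The remaining 70 clones had no symbol or accession in the tables used here, and they are given by spot number and with no function or sequence.

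Of all 5332 evaluable spots, 1.52% were among the 81 clones. Seen as families, 5 of the 12 evaluable spots of seed maturation proteins were among the 81 clones, as were 1 of 4 glutathione S-transferases and 1 of 5 bZIP factors. Both ALDH7B1 spots and 1 of 2 epoxide hydrolase spots were among them, but 0 of 2 NAC factors, 0 of 4 protein kinases and 0 of 1 protein disulfide isomerase. The fit to the scanner intensities, described below, called 4.57% of all tested spots higher under PEG. Among the families it called 5 of 9 tested seed maturation spots higher, 2 of 4 glutathione S-transferases, 2 of 5 bZIP factors and 1 of 2 NAC factors, and none lower. Of the spots called, those of PM12, PM30, PM41, GSTa and BZIP77 and 1 PM34 spot are among the 81 and were chosen on PEG. Their calls therefore follow in large part from the rule. It called neither of 2 tested protein kinases, and the protein disulfide isomerase spot was not tested. Of 6 spots for seed storage proteins and the Kunitz inhibitor, markers of seed tissue, none was among the 81, and their mean PEG ratios ran from −0.49 to 0.28. Leaf markers were looked for by symbol among chlorophyll a/b-binding proteins, the RuBisCO small subunit, photosystem I subunits and GAPA. Of these, only PSAD, a photosystem I subunit, was found. Its mean PEG ratio was 0.37 and it was not among the 81, but 1 spot does not stand for its class. Photosynthesis clones without a symbol could not be matched to spots here.

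The clones covered a wide range of sizes, most of them small. The mean PEG ratio had a lower quartile of 0.65, a median of 0.91 and an upper quartile of 1.20, that is 1.57-fold, 1.88-fold and 2.30-fold. Of the 81, 33 reached at least 2-fold, 13 reached 3-fold and 4 reached 4-fold, while 23 lay under 0.7. Among the 70 clones without a symbol, 25 reached 2-fold, 10 reached 3-fold and 2 reached 4-fold, with a median of 0.85 and a highest value of 2.32. PM30 had the highest mean, with 3.18 and 4.20 in PEG replicate 1 and 9.24 and 4.56 in PEG replicate 2, and PM34 was next at 2.66. The size for PM30 is loosely bound, since its control channel was above background on 2 of the 4 PEG slides. Its mean of 5.29 was 3.98 without the slide of 9.24, which was quantified by a different method, and 6.0 without the slide of 3.18. In 1 other clone, spot 4397, leaving out 1 hybridization also moved the mean by more than 1.5 times.

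The PEG part of the rule was met by 174 of 5492 spots with enough PEG values, or 3.17%. Of the 170 that also had enough values in the other treatments, 81 were the clones described here, 47.6%. The remaining 89 left the −0.3 to 0.3 window in at least 1 ER-stress treatment. Their mean was 0.3 or more in 54 cases under TUN and in 57 under AZC, 35 of them in both, and −0.3 or less in 7 and 13 cases.

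**Figure D1:**
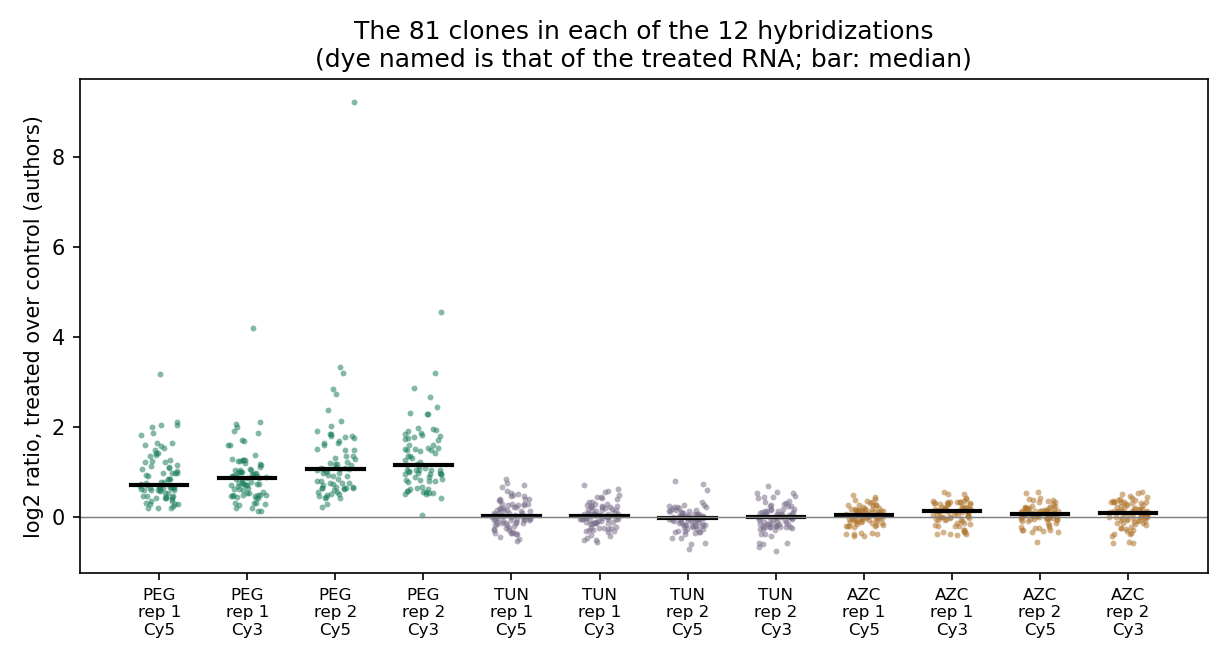
Authors' log2 ratios of treated over control (vertical axis) for the 81 clones in each of the 12 hybridizations, with the dye of the treated RNA named and a bar at the median. PEG medians were 0.71 to 1.14, against −0.04 to 0.02 under TUN and 0.04 to 0.12 under AZC; the highest point, 9.24, is PM30.

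The medians over the clones were 0.71 (treated RNA in Cy5) and 0.85 (in Cy3) for PEG replicate 1, and 1.05 and 1.14 in PEG replicate 2. Under TUN they were 0.02 and 0.00 in replicate 1 and −0.04 and −0.02 in replicate 2, and under AZC 0.04 and 0.12 in replicate 1 and 0.06 and 0.07 in replicate 2. In 62 of the 81 clones the lowest PEG hybridization lay above the highest of the 8 TUN and AZC hybridizations, as it did in 2.74% of all evaluable spots. The rule itself brings most of this separation about.

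Spot 126 had the largest mean of the clones without a symbol. Its ratios were 1.59 and 1.85 in PEG replicate 1 and 3.19 and 2.66 in PEG replicate 2, a mean of 2.32 (SD 0.85 between the 2 replicates). All 4 were high, but replicate 2 was above replicate 1 by 1.20. Under TUN it had 0.75 and 0.55 in replicate 1, against −0.24 and −0.12 in replicate 2, so that its small TUN mean of 0.24 came from replicates on opposite sides of 0. Under AZC its 4 values stayed between −0.08 and 0.06.

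Spot 2859 was the next, with 2.03 and 2.07 in PEG replicate 1 and 2.43 in replicate 2, where 1 hybridization had no value. The 3 values lay close together around a mean of 2.18 (SD 0.27 between replicates). Its TUN replicates again had opposite signs, 0.25 and −0.31, while its AZC replicates were 0.23 and 0.07.

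The other spots named here were picked with their values in view. Spot 4389 held its value most evenly among the larger ones, with 1.57 and 1.71 in PEG replicate 1 and 1.80 and 1.91 in replicate 2, a mean of 1.75. Its TUN values ran from −0.10 to 0.09 and its AZC values from 0.07 to 0.44. Spot 2734 had the same order of size but far less even values, 2.0 and 1.17 in PEG replicate 1 and 2.72 and 1.79 in replicate 2. Both times the higher ratio was the one with the treated RNA in Cy5. Spot 5260 had 1.41 and 1.59 in PEG replicate 1 and 2.37 and 1.84 in replicate 2. Spots 1419, 3608 and 1752 had PEG means of 1.78, 1.76 and 1.65, the first on 3 values. Spot 4121 was lower than its control under both ER-stress inducers, at −0.28 (TUN) and −0.27 (AZC), near the edge of the rule, and had a PEG mean of 1.70.

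Neighbouring spots could carry different values. There were 3 pairs of clones on consecutive spots. Spot 5074 had a PEG mean of 1.61 and spot 5075 beside it 0.63. Spots 126 and 127 had 2.32 and 0.66, and spots 2859 and 2858 had 2.18 and 1.06. Across the 4 blocks of the slide the share of evaluable spots that were among the 81 clones ran from 1.22% to 2.05%, with 16 to 27 clones in a block, against 1.52% overall. Shares of whole blocks do not show closeness within a block. Spots 2858, 2859, 2861 and 2865 lay in row 40 of the same block. Spots 2, 11, 37, 39, 45, 73, 83, 126 and 127 lay in rows 1 to 4 of another. Whether the clones lay closer together than other spots was not tested.

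The lower limit of the PEG mean fell in a dense stretch of values. Just inside it stood spot 5601 at 0.60, whose 4 PEG values were 0.60, 0.48, 0.64 and 0.67, and just outside it a spot at 0.58. The TUN limit had members at −0.29 and 0.29 and excluded spots at 0.31 and 0.39. On the AZC side, members reached 0.29, and the nearest excluded spots had −0.31 and 0.32. Another 5 spots met every limit on the means but had a PEG value at or below 0, and 1 of them was the seed maturation protein PM39.

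Replicates ordered the clones only in part alike, and replicate 2 gave the larger values. After averaging the dye pair, the median ratio was 0.78 in PEG replicate 1 and 1.04 in PEG replicate 2, and 70 of the 81 clones, 86.4%, were higher in replicate 2, against 52.1% of all evaluable spots. In ratios made anew from the scanner intensities, 59 of the 81 clones were higher in replicate 2, against 2581 of 5332 evaluable spots. The spread over all evaluable spots was also wider in replicate 2, with an SD of 0.527 against 0.386 in replicate 1. Both replicates reached the lower limit of 1.5-fold in 56 clones. Replicate 1 alone was below that in 23 and replicate 2 alone in 2. Across the 81 clones, which share the arrays and were selected on these values, Pearson's r between replicates was 0.796 and Spearman's rho 0.558, and without PM30 r was 0.664. Over the 5332 spots they were 0.790 and 0.50.

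**Figure D2:**
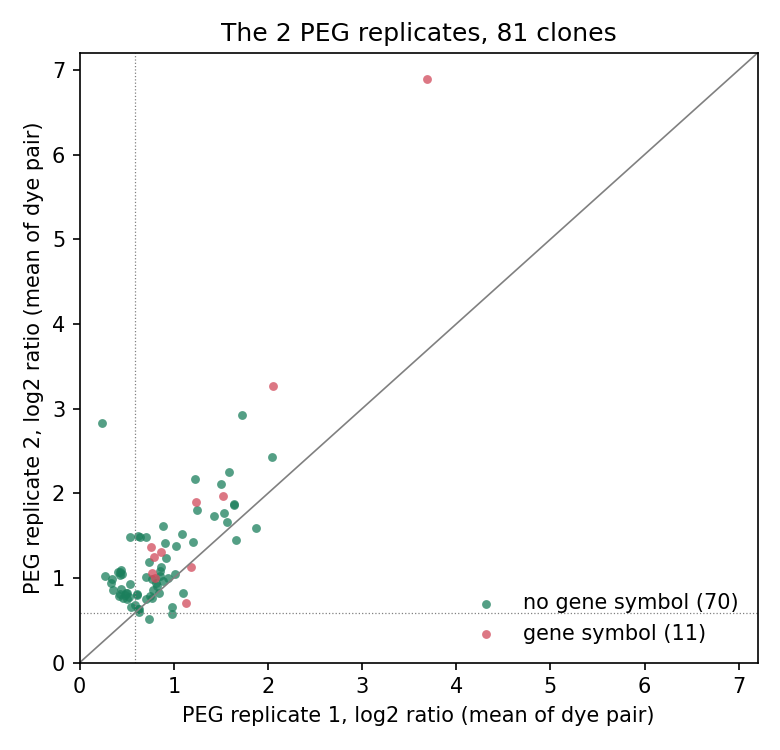
Mean log2 ratio of the dye pair in PEG replicate 1 (horizontal) and in PEG replicate 2 (vertical) for the 81 clones; the line marks equal values and the dotted lines 1.5-fold. Of the 81 points, 70 lie above the line, and the point at the upper right is PM30.

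The difference between replicates had a median size of 0.322, against 0.176 over all evaluable spots. It was under 0.3 in 35 clones and over 1 in 4. In 67 clones the PEG mean was more than 2 times the SD between the replicates, which the limits of the rule on the PEG values favour. Spot 4397 was the exception at the other end, the only clone whose mean, 1.10, was below that SD. It had 0.29 and 0.18 in PEG replicate 1 and 2.83 in the single hybridization of replicate 2 with a value, and its control channel was above background on 2 of the 4 slides. Spot 1292 agreed between replicates, at 0.78 and 0.86, only because 1.68 and 0.04 averaged out within replicate 2.

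Part of the unevenness lay within replicate 2. The dye orientations of the same RNA differed by a median of 0.498 in PEG replicate 2 (66 clones with both) and by 0.263 in PEG replicate 1 (80 clones with both), against 0.388 and 0.293 over all evaluable spots. Spearman's rho between orientations was 0.275 in replicate 2 and 0.588 in replicate 1. The Cy5-treated slide of replicate 2 stood apart from the others. It was quantified by a different method, and in its treated channel 44.3% of all spots and 53 of the 81 clones were above background, against 83.0% of spots and 74 clones in the other orientation. It had no value for 8 clones. With the remaining 3 hybridizations alone, 14 of the 81 clones had a mean under 1.5-fold, and without the other orientation of replicate 2 there were 10. Without either orientation of replicate 1 there were 2 and 1. The part of the quantification in these values was not tested.

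Under the ER-stress inducers the clones were near 0 on average, by the rule, but not in every hybridization. The TUN means had a median of −0.02 over the clones and the AZC means one of 0.06, against −0.01 and 0.01 over all evaluable spots. Both AZC replicates lay within 0.3 of 0 in 68 clones, and no clone had an AZC hybridization of 1.5-fold or more in size. For TUN both replicates lay within 0.3 in 51 clones, and 15 clones had at least 1 hybridization of that size. In 3 clones the TUN replicates had opposite signs with both at 0.3 or more in size. In 43 of the 81 clones all 4 replicate means of TUN and AZC stayed within 0.3. The median difference between replicates was 0.194 under TUN and 0.134 under AZC.

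The scanner intensities were fitted anew and set beside the authors' ratios. For this the 2 files of PEG replicate 1 were exchanged, because each matched the authors' ratios of the other slide. Closeness to the authors' ratios under PEG is therefore partly built in. With the files as listed, 0 of 66 tested clones were higher under PEG at an unadjusted limma p under 0.05. limma gave 1 coefficient per treatment, and a spot was called at an adjusted p under 0.05 after Benjamini-Hochberg adjustment over all spots tested. Of the 81 clones, 66 could be tested under PEG, since 15 lacked a complete dye pair in 1 replicate. All 66 were called higher, against 4.57% of the 4333 spots tested, which the rule brings about and from which nothing is read. Their fitted PEG ratios had a median of 1.17 and ran from 0.66 to 4.79 (n = 2 replicates). The median over all spots tested was 0.01. Standard errors of the clones' fitted PEG ratios were 0.08 to 0.33. They rest on a spread shared by all treatments and drawn toward that of other spots, not on the PEG replicates alone. In the authors' ratios the 81 clones differed between replicates by a median of 0.322 under PEG, 0.194 under TUN and 0.134 under AZC. The standard errors may therefore be too small for PEG. The new ratios were larger than the authors' in 63 of the 66 clones, by a median of 0.22, and ranked them nearly alike (Spearman's rho 0.925). The test of the study's methods, which sets the mean of the 4 authors' ratios against its standard error, called 65 of the 81 clones higher under PEG before any adjustment, against 7.17% of 5492 spots. That test counts the 2 dye orientations of the same RNA as separate values.

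Of 78 clones tested under TUN limma called 0, against 7.08% of all spots called in either direction. Under AZC it called 0 of 75, against 9.00% of all spots. Both counts of 0 are again set by the rule. At an unadjusted limma p under 0.05, 3 clones were higher and 2 lower under TUN, and 6 higher and 2 lower under AZC. The share of all spots at that unadjusted limit was not counted, so nothing is read from these. The direct contrasts were called for fewer clones than PEG alone. PEG minus TUN was called higher in 39 of 64 clones, against 1.99% of all spots, and PEG minus AZC in 37 of 61, against 2.87%. For 25 and 24 of the tested clones, the difference between PEG and the ER-stress inducer therefore did not pass the test, which does not show that they were equal. These contrasts also rest on the values of the rule. PEG minus TUN further sets 16 h against water beside 24 h against DMSO, so time and control cannot be told apart from the treatment there.

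The brightness of the clones in the control channel is a measure the rule did not use as such. Background-corrected intensities were ranked within each hybridization and expressed as percentiles among all spots. Brightness depends on the amount of spotted cDNA and its length as well as on the transcript, and the PEG control channel enters the PEG ratio, so the TUN and AZC control channels are the more independent ones. In these the 81 clones had a median percentile of 35.5 (TUN, DMSO) and 35.5 (AZC, water), against 49.6 and 49.5 for all evaluable spots. In the PEG water controls the median was 30.9, against 47.7. The median clone was thus dimmer than the median spot in all 3 sets of controls, and on the 12 hybridizations the medians of the clones ran from 23.4 to 39.5.

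**Figure D3:**
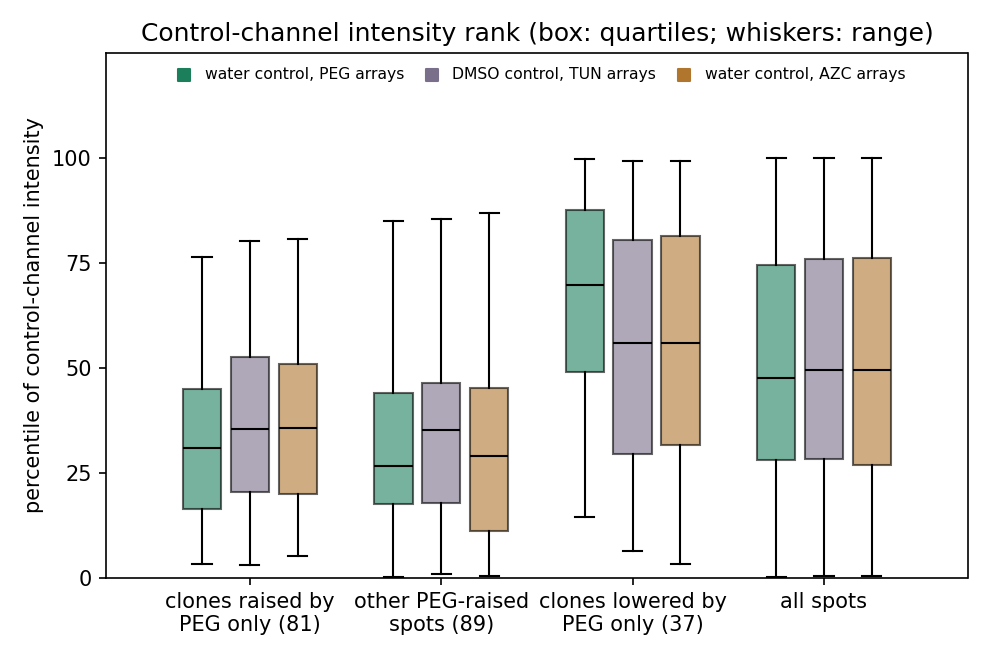
Percentile of control-channel intensity (vertical axis) in the PEG, TUN and AZC hybridizations for 4 sets of spots; boxes give quartiles and whiskers the range. The 81 clones have medians of 30.9, 35.5 and 35.5, against 47.7, 49.6 and 49.5 for all 5332 spots.

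Low rank did not in general mean a signal below the background limit, which most spots of the array passed. In the DMSO and water controls of the TUN and AZC hybridizations, 71 of the 81 clones were above background on all 8 slides. On single slides, 89.9 to 99.0% of all spots were above it in these channels. In the PEG water controls 50 clones were above background on all 4 slides, 28 on 3 and 3 on 2. There, 81.8 to 99.6% of all spots were above it on single slides. The range of ranks was wide, from 5.09 to 80.6 in the AZC controls, and 0 clones passed the 90th percentile in any of the 3 sets of controls. Below the 25th percentile lay 35 clones in the PEG controls, 43.2%, against 20.8% of all evaluable spots. The excess was smaller in the TUN controls, with 28 clones or 34.6%, against 21.0%, and in the AZC controls, with 26 clones or 32.1%, against 22.8%. The PEG control rank was lower than the AZC control rank, also of water-treated leaves, in 53 of 81 clones, against 54.9% of all evaluable spots. In the PEG-treated channel the median percentile was 60.5, and every clone ranked higher there than in the water channel of the same slides, which follows from the rule. Saturated pixels were found in 5 clones and reached at most 8.30% of a spot's pixels.

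The other spots that PEG raised also had medians below those of all spots. The 89 spots that also moved under TUN or AZC had median percentiles of 26.6 in the PEG controls, 35.2 in the TUN controls and 28.9 in the AZC controls. The mirror set, 37 spots lowered by PEG by the same limits, had 69.6 in the PEG controls, 56.0 in the TUN controls and 56.0 in the AZC controls. No test of these differences was made, since spots of 1 set of slides are not replicates.

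**Figure D4:**
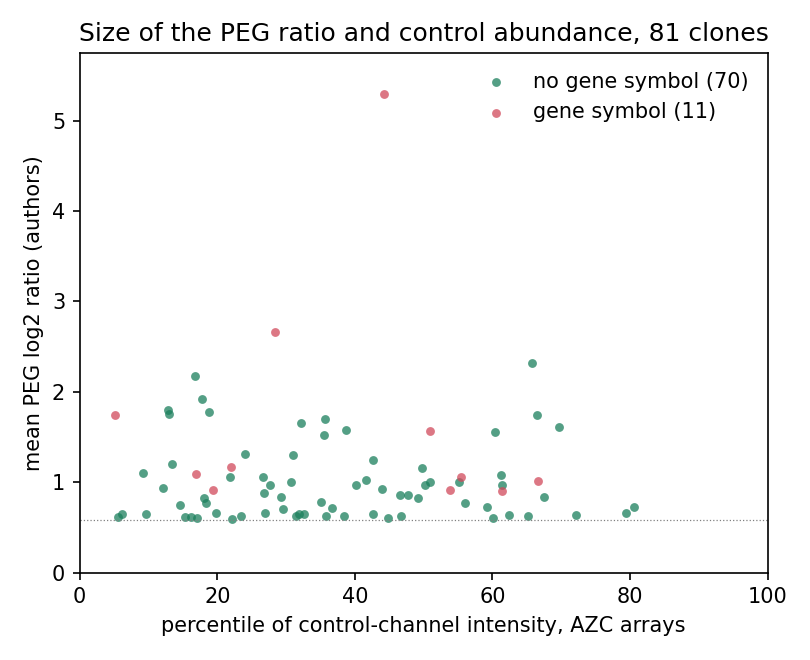
Mean PEG log2 ratio (vertical axis; dotted line at 1.5-fold) against the percentile of control-channel intensity in the AZC hybridizations (horizontal axis) for the 81 clones. Spearman's rho over the 81 points is −0.02.

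Clones with large and small PEG ratios were found at bright and dim controls alike. Over the 81 clones, which share their slides, Spearman's rho between the mean PEG ratio and the control percentile was −0.02 for the AZC controls, −0.06 for the TUN controls and −0.10 for the PEG controls. Split into 3 sets of 27 by AZC control percentile, the median PEG ratio was 0.94 in the dimmest, 0.88 in the middle and 0.91 in the brightest set, and 13, 10 and 10 clones reached 2-fold. The size of the difference between replicates was also much the same, with medians of 0.361, 0.310 and 0.322. Single clones show the range. Spot 4735, the brightest in the AZC controls at the 80.6th percentile, had PEG values of 0.70, 0.72, 0.45 and 1.04. Spot 2518, the dimmest of those without a symbol at the 5.60th, had 0.62, 0.30, 0.96 and 0.56. Spot 126, the largest clone without a symbol, ranked at 65.7 in the AZC controls and at 32.2 in the PEG controls.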

How the data were processed

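Log2 ratios of treated over control for 12 two-colour hybridizations were deposited by the authors after background subtraction and LOWESS normalization in Genespring, and their direction was found from the values. The scanner intensities deposited beside them are mean foreground, median local background and its SD per spot, in arbitrary units, and the deposited percent of saturated pixels was also read. The authors scanned at one fixed laser setting, and the number of arrays limits the precision.

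The members and gene lists were chosen with earlier results of these data known. Means and counts were taken from the authors' log2 ratios. The intensities were corrected by normexp (offset 50), normalized by global loess, turned to treated over control by the labelled dyes and averaged over the dye pair, and limma 3.58.1 (R 4.3.3) took 6 values per spot, with an intensity trend. Marked spots were left out. Spots were tested if 1 or more RNA groups exceeded background by 2 SD on 3 of 4 slides. The 2 files of PEG replicate 1 were used exchanged, since each matched the other slide's ratios (r at least 0.977 in size) better than its own (at most 0.499), while the other 10 files matched their own (at least 0.953). This was chosen after seeing the data. The fit was tested on simulated data. One PEG replicate 2 slide, treated RNA in Cy5, had its own quantification method.

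Spots with a symbol were counted and listed. Of those without, the rule allowed 2, the largest PEG means; further ones were chosen after their values were seen. Symbols come from the platform's table, and LOC symbols without a description were put in no list. Alternatives were other backgrounds, normalizations, filters, spreads, dye orientations, a random and a replicate block, the authors' ratios, the methods' t-test and each replicate left out. All quantities come from the deposited tables; the RT-PCR is not used here.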

Additional observations from a re-analysis of the deposited data

Results flagged for a closer look

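Of 63 sets of 4 values examined, 1 held a value far from the others, where chance gives about 1 in 20. Spot 5260 had 0.68 under TUN in replicate 2 with the treated RNA in Cy3, against −0.14 and −0.15 in replicate 1 and −0.17 in the other orientation of replicate 2 (gap over range 0.962, limit 0.83). Its control channel was above background on 7 of the 8 TUN and AZC hybridizations.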

How the results depend on the processing

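The number of clones, 81, was 59 with all 4 values required in each treatment, 33 with a PEG mean of at least 1, 48 with TUN and AZC means within 0.2 and 113 within 0.5. With scanner ratios it was 71, of which 53 were shared with the 81. Leaving out replicates gave 62 to 104 clones, the highest without PEG replicate 1 (65 shared) and the lowest without TUN replicate 2 (62 shared).

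Leaving out each replicate in turn gave 34 to 66 clones called higher under PEG, 11 to 33 for PEG minus TUN and 13 to 42 for PEG minus AZC. Without PEG replicate 2 these were 34, 11 and 13, and PEG minus AZC was 13 without AZC replicate 1 and 15 without AZC replicate 2. The lone replicate was then assumed to vary like the others. The median PEG ratio was 1.0 to 1.33, and the PEG control percentile 27.2 to 30.6. With treated RNA in Cy5 only, 41, 17 and 15 clones were called, and with Cy3 only, 1 was called under AZC. Without the hybridization quantified by another method, PEG minus AZC was called in 22. With a dye term and a random block, 60 were called for each contrast. That fit took single hybridizations in place of dye-pair means, and its estimated correlation within blocks was −0.13. With a correlation below 0, the block did not discount the dye orientations of the same RNA as repeats. The 60 calls are therefore no stricter test of the contrasts than the main fit. The methods' t-test called 65 clones under PEG, 4 under TUN and 11 under AZC before Benjamini-Hochberg adjustment, and 1 under PEG after it. Before adjustment it called 7.17% of all spots higher under PEG. That share was not counted under TUN and AZC, so nothing is read from the 4 and 11 calls. Median centring called 4 under AZC, and each treatment fitted alone 1.

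The median PEG ratio of 1.17 was 0.92 with plain subtraction, 0.74 with no background correction and 0.93 from the authors' ratios, and without background correction the AZC control percentile was 33.8. With the PEG replicate 1 files as listed, limma called 0 clones under PEG, 0 for PEG minus TUN and 0 for PEG minus AZC, the median was 0.11, and spots 2734, 5074, 5075 and 1292 had −0.037, −0.0077, −0.13 and −0.22. At an unadjusted p under 0.05 that fit also had 0 of these clones.

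The labels do not say whether the replicate numbers pair the samples of different treatments. Deviations from the treatment mean correlated at −0.056 (PEG and TUN), −0.073 (PEG and AZC) and 0.14 (TUN and AZC). These values cannot settle the question, and the main fit used no pairing. With the replicate block 66 clones were called higher under PEG, 38 for PEG minus TUN and 36 for PEG minus AZC. The cause of these changes was not tested. With 2 biological replicates a treatment, sizes are loosely bound, and the PEG control was above background on all 4 slides in 50 of the 81 clones.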
